A study of Mus musculus with 4 samples.

Results

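Hypoxia factors and target genes of the hypoxia-inducible factor HIF1 were described in cultured mouse adipocytes. The set held 10 genes (Hif1a, Epas1, Egln1, Egln3, Bnip3, Vegfa, Ankrd37, Ndrg1, Adm and Pdk1), chosen by name, and every probe that the array files annotate with 1 of these names was taken. These were 17 of 55681 probes, and 10 of 35019 genes. 3T3-L1, an established mouse fibroblast line that becomes fat-storing in culture, was differentiated into adipocytes in all groups and then treated for 7 days. The groups were daidzein+PT (25 μM daidzein with 100 μg/ml PT), daidzein (25 μM), PT (100 μg/ml) and PBS. Daidzein is a soy isoflavone, and PT is taken here, from the title of the series, to be the pig testis extract whose effect on adiponectin the series addresses. RNA of each group was read on 1 single-colour (Cy3) array of 60-base probes, and the labels do not say how many cultures stood behind an RNA.

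HIF is a pair of proteins, an alpha subunit (encoded by Hif1a or Epas1) and the constant partner encoded by Arnt. While oxygen is present, prolyl hydroxylases (Egln1, Egln2 and Egln3) mark the alpha subunit, the von Hippel-Lindau protein binds the mark, and the subunit is degraded. When oxygen is short the alpha subunit accumulates and binds ACGTG or GCGTG in target genes for glycolysis, vessel growth and mitochondrial turnover, so that much of the control of HIF lies in the protein and is not seen in the mRNA of Hif1a itself. Fat tissue that expands is known to become poorly oxygenated.

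All 10 genes had a probe well above background, the scanner software's flag for a spot brighter than its surroundings, on all 4 arrays. A level is given here as the multiple of the array's own 75th percentile of signal, and levels are compared between arrays for the same probe only. With 1 array per group there is no replicate and no test of a comparison. A 2-fold difference is a rule of size, and the number of arrays limits the precision. The only gauge of spread is the interaction (daidzein+PT over daidzein minus PT over PBS, on the log2 scale), and a real influence of daidzein on the response to PT would be part of it. Scaled to a difference of 2 arrays, its SD over genes was 0.33 on the log2 scale in the dimmest tercile (of 3 equal groups of genes by signal), 0.14 in the middle tercile and 0.11 in the brightest tercile. Arrays of PT and daidzein+PT lay in slide row 2 and those of daidzein and PBS in row 1, so PT and slide row cannot be told apart. In the cells as a whole, a shift in the share of differentiated cells and a shift in RNA per cell cannot be told apart either.

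The labelled cell type was checked against markers. All 7 adipocyte markers (Adipoq, Fabp4, Plin1, Cidec, Cebpa, Pparg and Lpl) were well above background on every array, and their summed level was 951 with daidzein+PT, 595 with daidzein, 270 with PT and 145 with PBS. The 6 preadipocyte and fibroblast markers summed to 1212, 1131, 1301 and 1338 in the same order of arrays. Of the endothelial markers Cdh5, Tek and Vwf were not above background on any array, while Pecam1 and Kdr were on all 4. Of the macrophage markers Adgre1 and Ptprc were not above background on any array, while Cd68, Csf1r and Itgam were on all 4. The 5 endothelial markers summed to between 10.3 and 11.4 on each array, of which Kdr alone made up 10.1 to 11.2. The 5 macrophage markers summed to between 28.4 and 30.9. The level of adipocyte markers thus differed widely between the arrays. Their part in the results that follow was not tested.

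Upstream sequence is shown for Bnip3 and Egln3, the members with the largest differences for daidzein+PT over PBS by their brightest probe. It is also shown for Ankrd37, which carries as many kinds of the HIF core motif as Bnip3 but differed little in that comparison. These are the 250 bases before the start site, from RefSeq on GRCm38.p6, read 5′ to 3′ on the gene's own strand, which is the minus strand for all 3. They lie at chr7:138909507-138909756 for Bnip3, chr12:54203875-54204124 for Egln3 and chr8:45999851-46000100 for Ankrd37. Capitals mark ACGTG and GCGTG on either strand, so that CACGC is GCGTG on the other strand and CACGTG counts as ACGTG on both.

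Bnip3: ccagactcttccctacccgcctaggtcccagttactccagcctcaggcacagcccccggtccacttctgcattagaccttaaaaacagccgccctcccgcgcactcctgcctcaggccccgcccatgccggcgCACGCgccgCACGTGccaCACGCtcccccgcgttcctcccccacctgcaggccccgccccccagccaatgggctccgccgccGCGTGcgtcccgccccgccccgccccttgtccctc

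Egln3: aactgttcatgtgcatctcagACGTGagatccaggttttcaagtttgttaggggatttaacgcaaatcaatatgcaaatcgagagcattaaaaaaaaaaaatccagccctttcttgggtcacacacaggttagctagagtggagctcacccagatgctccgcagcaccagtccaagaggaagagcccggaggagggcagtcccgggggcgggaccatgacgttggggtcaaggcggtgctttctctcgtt

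Ankrd37: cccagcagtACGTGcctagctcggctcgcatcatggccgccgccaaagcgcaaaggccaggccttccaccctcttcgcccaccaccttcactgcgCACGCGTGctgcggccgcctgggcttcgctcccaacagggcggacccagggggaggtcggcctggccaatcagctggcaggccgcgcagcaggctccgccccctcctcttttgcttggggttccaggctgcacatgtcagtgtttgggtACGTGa

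Windows from 250 bases before to 50 after a start site were found for 8 of the 10 genes. Epas1 and Ndrg1 are named only. All 8 genes held ACGTG or GCGTG in a window, as did 46.7% of the 27025 genes in the table, and 6 held ACGTG, as did 21.8%. Bnip3 had 5 matches (2 of ACGTG and 3 of GCGTG), Ankrd37 had 4, Hif1a had 3 and Egln3 had 1. Egln1 and Adm had 2 each. Vegfa and Pdk1 each had 2 windows, of which 1 held 2 matches and the other none. Among 32851 windows of all genes, 43.8% held either motif. A match is a stretch of letters and does not show that HIF binds there.

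**Figure D1:**
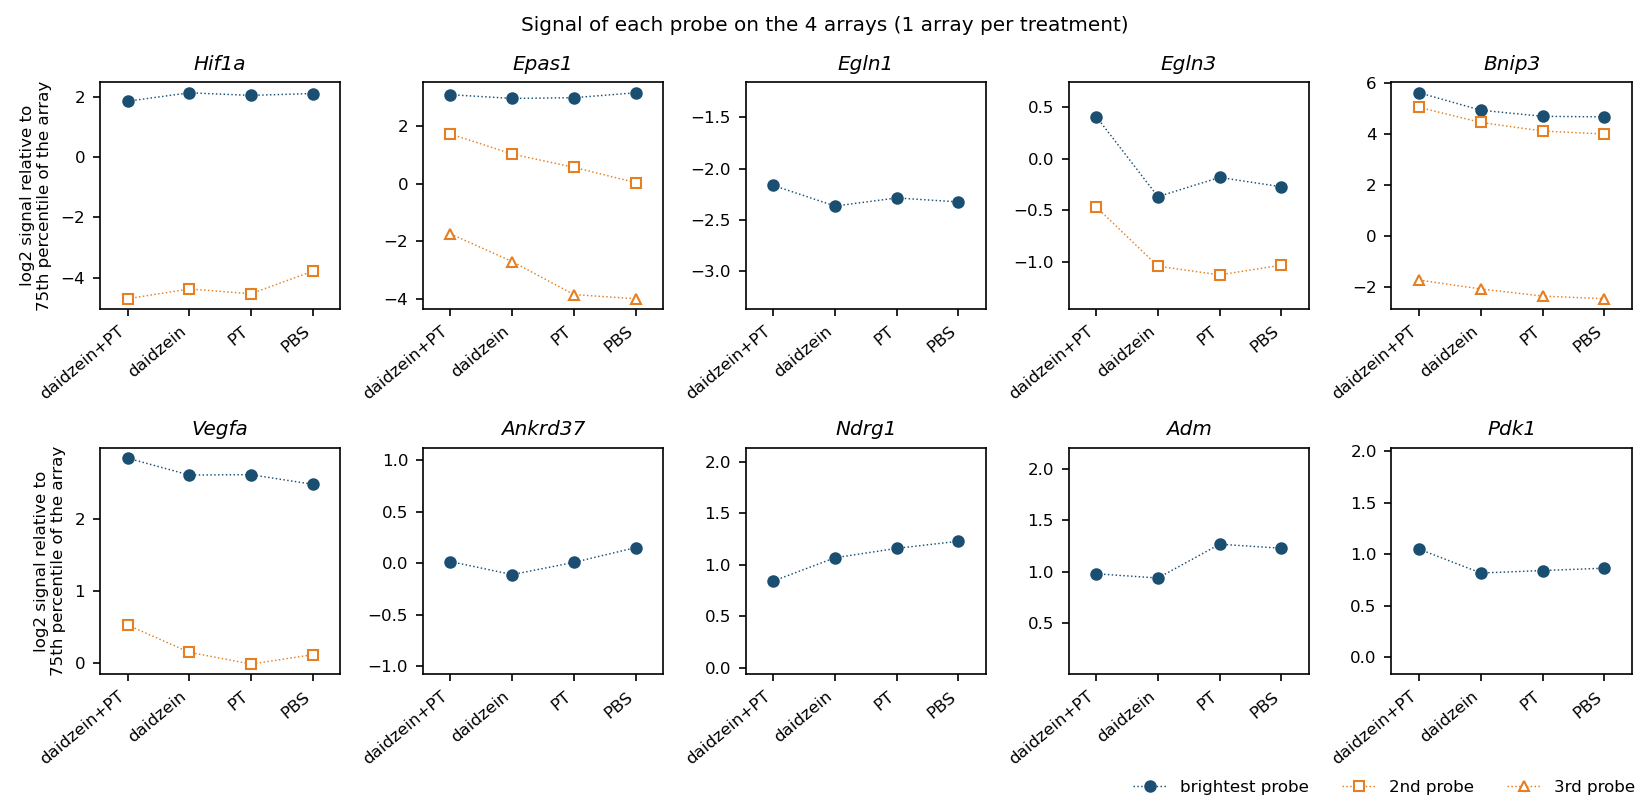
Level of each probe of the 10 genes on the 4 arrays. The vertical axis is the log2 signal relative to the array's 75th percentile, each point is 1 probe on 1 array, blue points are the brightest probe of a gene and orange points its other probes, dotted lines join the arrays of a probe only to guide the eye, and the vertical ranges differ between panels. Bnip3 and Egln3 stood highest with daidzein+PT on all their probes, whereas 1 Epas1 probe was nearly level over the arrays and the other Epas1 probes were not.

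Hif1a, the oxygen-regulated alpha subunit of HIF1, had levels of 3.60 with daidzein+PT, 4.37 with daidzein, 4.12 with PT and 4.30 with PBS on its main probe (chr12:75047269-75047329, plus strand, mouse build mm9). The daidzein+PT array was the lowest, and the other 3 arrays lay close together. The log2 difference from PBS was -0.26 for daidzein+PT, 0.02 for daidzein and -0.06 for PT, beside an SD of 0.14 for a difference. A second Hif1a probe, designed on another transcript record, was well above background on the daidzein and PBS arrays only. There daidzein was lower than PBS by a log2 difference of -0.59, with an SD of 0.33. PBS was at least 1.47-fold above daidzein+PT and at least 1.68-fold above PT on that probe (0.55 and 0.75 on the log2 scale). The dim array is held there at the higher of its own value and its dimmest spot well above background. These bounds do not allow for the SD of 0.33.

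Epas1, which encodes the HIF2 alpha subunit, gave readings that depended on the probe. Its brightest probe, which represents the gene in the counts below, had levels of 8.56 with daidzein+PT, 7.82 with daidzein, 7.96 with PT and 8.96 with PBS. These arrays lay within a narrow range, with log2 differences from PBS of -0.07, -0.20 and -0.17 for daidzein+PT, daidzein and PT and an SD of 0.11. The second probe had levels of 3.33 with daidzein+PT, 2.05 with daidzein, 1.49 with PT and 1.03 with PBS. On that probe daidzein+PT was 3.22-fold, daidzein 1.98-fold and PT 1.44-fold above PBS, each log2 difference (1.69, 0.99 and 0.53) being larger than the SD of 0.14. The third and dimmest probe had levels of 0.300, 0.154, 0.0697 and 0.0630 on the daidzein+PT, daidzein, PT and PBS arrays. It was 4.76-fold higher with daidzein+PT and 2.45-fold higher with daidzein than with PBS, while the PT difference of 0.15 was within its SD of 0.33.

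The 3 Epas1 probes thus spanned 2.32 on the log2 scale for daidzein+PT over PBS. That was a wider span than in 99.6% of the 5073 genes with several probes read on both arrays, whose median span was 0.19. All 3 probes are annotated to the plus strand of chromosome 17, and the brightest one lies between the others: the third probe at chr17:87230587-87230646, the brightest at chr17:87230678-87230737 and the second at chr17:87232615-87232674 (mm9). Their place in exons or UTRs was not analysed here. A stretch of 30 bases of each is shown, with the longest unbroken run of C and T in capitals, because the length of that run differs.

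Epas1, the brightest probe: aagaTTTCCCCCTCCCTCCCTCCCTTgaat

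Epas1, the second probe: actgcattgtcaaaTTCCTactgacgacat

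Epas1, the third probe: ccaagcagtggCCTTTatctgacatgctca

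The run of C and T was 22 bases in the brightest probe, a length reached by 0.104% of all 55681 probes, and 5 bases in each of the others, a length reached by 73.2%. This property was looked at after the values were seen. The part of the sequence in the disagreement of the probes was not tested.

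The levels of the second and of the third Epas1 probe ran in the same order over the arrays as the summed adipocyte markers, which were 951 with daidzein+PT, 595 with daidzein, 270 with PT and 145 with PBS. By the distance between log2 patterns over the 4 arrays, each centred on its own mean, the genes most like this probe among 12912 were Des (desmin, 0.046), Appbp2os (0.049) and Chst1 (0.049), and 24 genes lay within 0.1. For the third probe the nearest were Mst1 (0.062), Greb1 (0.092) and Adhfe1 (0.107), with 2 genes within 0.1. Likeness over 4 arrays is a description only.

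Of the prolyl hydroxylases, Egln1, the main oxygen sensor of most cells, had levels of 0.223 with daidzein+PT, 0.194 with daidzein, 0.205 with PT and 0.200 with PBS (chromosome 8, minus strand). The 4 arrays lay within the spread, with a log2 difference of 0.16 for daidzein+PT over PBS and an SD of 0.33. Egln3, the prolyl hydroxylase that HIF itself is known to induce, had levels of 1.33 with daidzein+PT, 0.774 with daidzein, 0.881 with PT and 0.828 with PBS (chr12:55280953-55281012, minus strand, mm9). Daidzein+PT stood alone above the other 3 arrays. Its log2 difference was 0.68 over PBS, 0.78 over daidzein and 0.59 over PT, beside an SD of 0.14, while daidzein alone (-0.10) and PT alone (0.09) lay within that SD of PBS. The second Egln3 probe had levels of 0.722, 0.485, 0.457 and 0.488 on the daidzein+PT, daidzein, PT and PBS arrays. It showed the same array as highest, with a log2 difference of 0.56 for daidzein+PT over PBS and an SD of 0.33.

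Bnip3, a protein of the outer mitochondrial membrane that promotes removal of mitochondria, is a well-known HIF1 target. By the brightest probe it showed the largest difference for daidzein+PT over PBS among the 6 target genes beyond the hydroxylases. Its brightest probe had levels of 49.1 with daidzein+PT, 30.6 with daidzein, 25.9 with PT and 25.5 with PBS (chr7:146082760-146082819, minus strand, mm9). Daidzein+PT was 1.92-fold above PBS and daidzein alone was above PBS by 0.26 on the log2 scale, beside an SD of 0.11, whereas PT alone differed from PBS by 0.02. The second probe had levels of 33.0, 21.9, 17.4 and 16.0 on the daidzein+PT, daidzein, PT and PBS arrays. It was 2.06-fold above PBS with daidzein+PT, and its log2 difference was 0.45 for daidzein and 0.12 for PT. The third probe had levels of 0.302, 0.237, 0.196 and 0.182 in the same order of arrays, and differences of 0.73, 0.38 and 0.10 with an SD of 0.33. All 3 Bnip3 probes gave 1 order of arrays, daidzein+PT highest, then daidzein, then PT and PBS close together. The summed adipocyte markers (951, 595, 270 and 145) ranked the arrays alike, but PT and PBS were not close together there. Their median log2 difference for PT over PBS was 1.08. The median interaction of these markers was -0.24, with 3 above 0 and 4 below. The part of these markers in the Bnip3 levels was not tested. The genes most like the second probe were Dnajc15 (distance 0.028), Emc9 (0.040) and 1110020A21Rik (0.043), and 94 genes lay within 0.1.

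Vegfa, the growth factor for blood vessels, had levels of 7.15 with daidzein+PT, 6.08 with daidzein, 6.10 with PT and 5.56 with PBS (chr17:46154387-46154446, minus strand, mm9). Its log2 difference for daidzein+PT over PBS was 0.36 with an SD of 0.11, and those of daidzein and PT, 0.13 each, were close to that SD. A second Vegfa probe had levels of 1.44, 1.11, 0.988 and 1.08 on the daidzein+PT, daidzein, PT and PBS arrays. Daidzein+PT was highest there too, with a difference of 0.41 over PBS and an SD of 0.14. Pdk1, the kinase that switches off pyruvate dehydrogenase and so keeps pyruvate out of mitochondria, had levels of 2.07 with daidzein+PT, 1.76 with daidzein, 1.79 with PT and 1.82 with PBS (chr2:71739688-71739747, plus strand, mm9). The daidzein+PT array was highest by 0.18 over PBS with an SD of 0.14.

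The remaining targets were not higher with daidzein+PT. Ndrg1, a stress-response gene induced by low oxygen, had levels of 1.80 with daidzein+PT, 2.10 with daidzein, 2.24 with PT and 2.35 with PBS (chr15:66761057-66761116, minus strand, mm9). It was lowest with daidzein+PT, with log2 differences from PBS of -0.39, -0.16 and -0.07 for daidzein+PT, daidzein and PT and an SD of 0.14. Adm, which encodes the vessel-dilating peptide adrenomedullin, had levels of 1.97 with daidzein+PT, 1.92 with daidzein, 2.40 with PT and 2.34 with PBS (chr7:117773088-117773147, plus strand, mm9). Both arrays with daidzein lay below both arrays without it, by -0.25 for daidzein+PT over PBS and -0.29 for daidzein over PBS, and PT alone differed by 0.04. Ankrd37, an ankyrin-repeat gene known as a HIF1 target, had levels of 1.01 with daidzein+PT, 0.928 with daidzein, 1.01 with PT and 1.11 with PBS (chr8:47082404-47082463, minus strand, mm9). PBS was its highest array, and the log2 differences were -0.14, -0.26 and -0.14 for daidzein+PT, daidzein and PT.

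**Figure D2:**
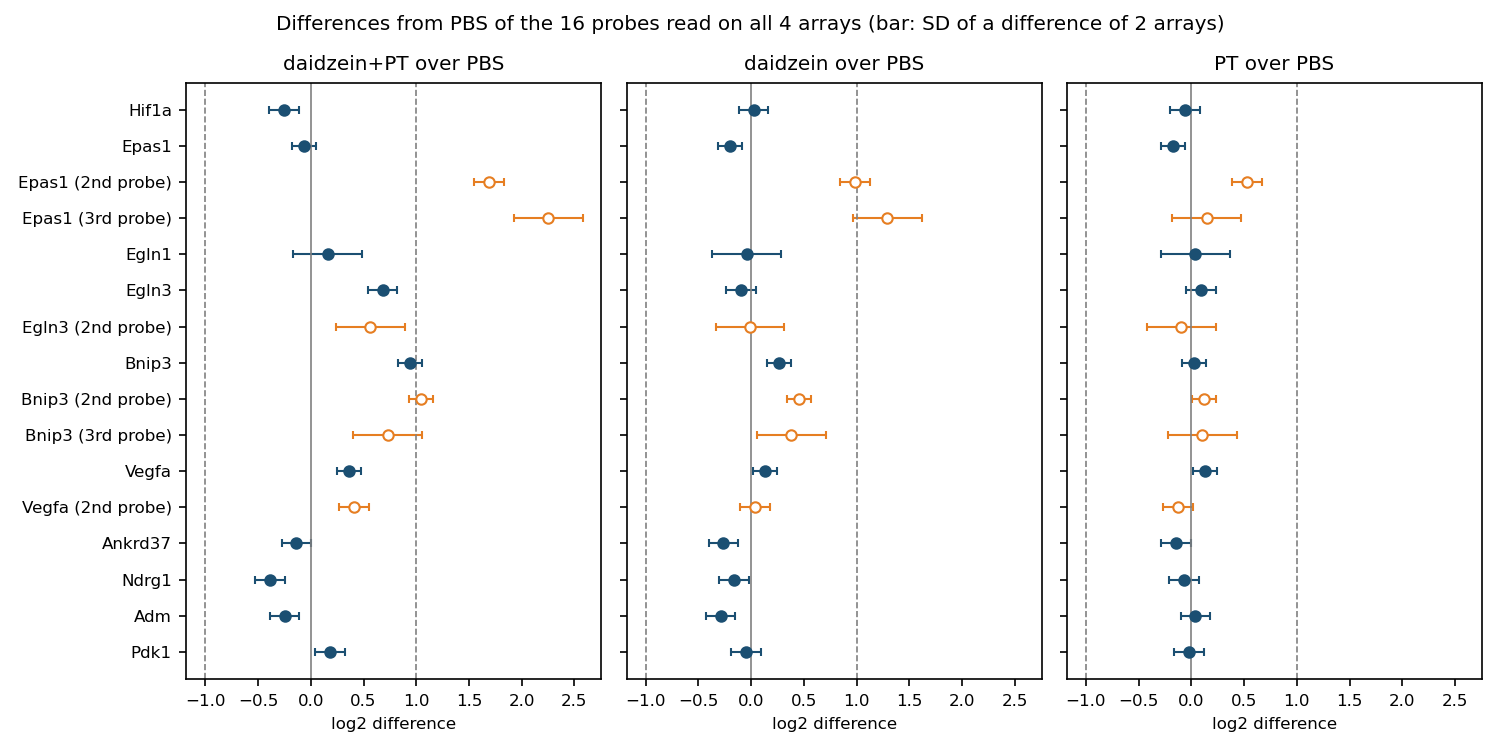
Log2 difference from PBS for the 16 probes read on all 4 arrays, 1 panel each for daidzein+PT, daidzein and PT. Points are single differences between 2 arrays, horizontal bars are the SD of such a difference for genes of like signal, blue is the brightest probe of a gene and orange its other probes, and dashed lines mark 2-fold. Only probes of Epas1 and Bnip3 lie past a dashed line, and the 3 panels share the PBS array.

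By the brightest probe, 0 of 10 genes were at 2-fold or more for daidzein+PT over PBS, where 3.08% of all genes were. The count was also 0 of 10 for daidzein over PBS (1.47% of all genes), for PT over PBS (0.936%), for daidzein+PT over daidzein (1.18%) and for daidzein+PT over PT (2.95%). Counting each probe, which was decided after the values were seen, 3 of 16 were at 2-fold or more for daidzein+PT over PBS (2 of Epas1 and 1 of Bnip3, all higher), where 2.99% of all probes were. For daidzein over PBS 1 of 17 was (Epas1), beside 1.42% of all probes, and for daidzein+PT over PT 2 of 16 were (both Epas1), beside 2.92%. No probe reached 2-fold for PT over PBS (1.01% of all probes) or daidzein+PT over daidzein (1.22%). The probes of 1 gene share their RNA and are not separate observations.

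The median log2 difference of the 10 genes was 0.05 for daidzein+PT over PBS, against -0.03 for all genes. It was -0.07 for daidzein over PBS (all genes -0.03) and -0.00 for PT over PBS (all genes -0.02). It was 0.16 for daidzein+PT over daidzein (all genes 0.01) and 0.11 for daidzein+PT over PT (all genes -0.01). Comparisons over PBS share the PBS array. The members went in both directions for daidzein+PT over PBS, with 5 above 0 and 5 below, where 45.2% of all genes were above 0. They lay between -0.39 (Ndrg1) and 0.94 (Bnip3).

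The 2 PT pairs, daidzein+PT over daidzein and PT over PBS, share no array, and their difference is the interaction. For Egln3 the PT difference was 0.78 with daidzein and 0.09 without it, an interaction of 0.69. For Bnip3 it was 0.68 with daidzein and 0.02 without it, an interaction of 0.66. The dimmer probes gave 0.67 for Egln3 and 0.47 and 0.24 for Bnip3. By the brightest probe, interactions of the remaining genes lay between -0.22 (Hif1a) and 0.30 (Epas1). Other probes of these genes differed from that, with 0.17 on the second Epas1 probe, 0.81 on the third probe and 0.51 on the second Vegfa probe. The second Hif1a probe, well above background on 2 arrays only, has no interaction that can be read. The median over the 10 genes was 0.21, with 8 above 0, against 0.03 over all genes, of which 57.2% were above 0. That share was 71.8% in the brightest tercile, 53.6% in the middle and 46.1% in the dimmest. Of the 10 genes 3 lay in the brightest tercile, 6 in the middle and 1 in the dimmest. No member reached an interaction of 2-fold, which 1.36% of all genes did. The interaction was not tested, as it has no replicate of its own.

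**Figure D3:**
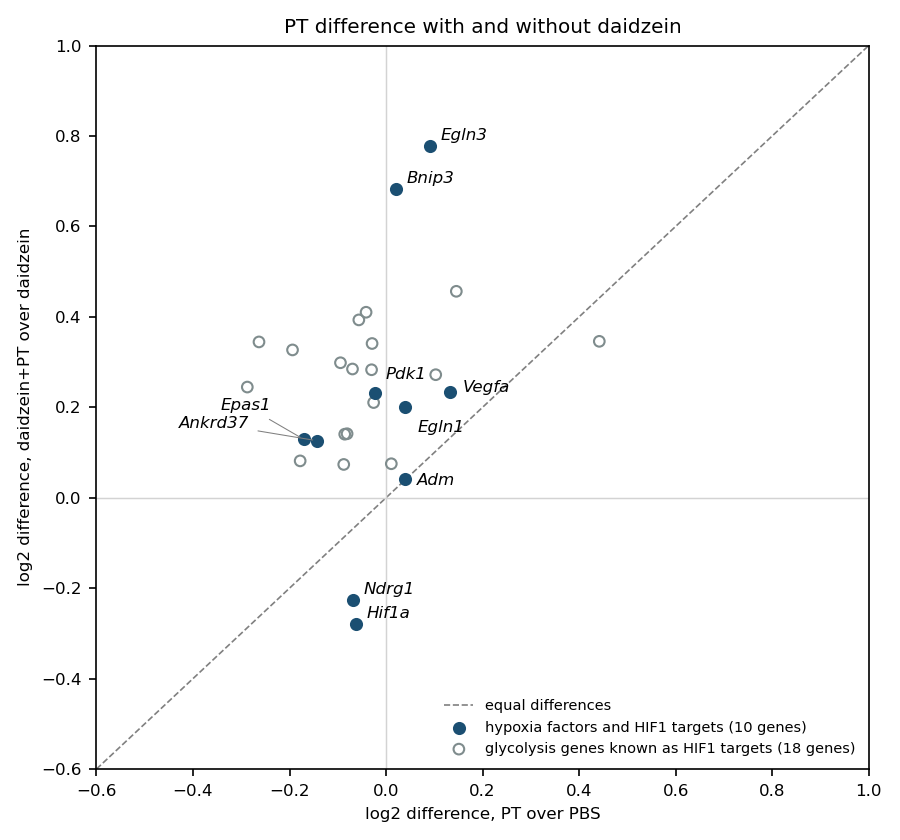
PT difference with daidzein (vertical axis, daidzein+PT over daidzein) against the PT difference without it (horizontal axis, PT over PBS), both on the log2 scale. Filled points are the 10 genes by their brightest probe, open points the 18 glycolysis genes known as HIF1 targets, and the dashed line marks equal differences. Egln3 and Bnip3 stand farthest above the line, and Hif1a and Ndrg1 stand below it.

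Glycolysis and glucose uptake genes known as HIF1 targets, 18 in number, were all read on the 4 arrays. All 18 were above 0 for daidzein+PT over daidzein, with a median log2 difference of 0.28, where 52.3% of all genes and 59.2% of the brightest tercile were above 0. Under normexp background correction and under the mean over probes 17 of 18 were. For PT over PBS 4 were above 0 and 14 below, where 44.5% of all genes and 32.7% of the brightest tercile were above 0. The median of the 18 was -0.06 there, which was 0.01 under cyclic loess with 9 above 0. Their interaction had a median of 0.31, with 17 above 0, and 11 of the 18 lay in the brightest tercile of genes, where 71.8% of interactions were above 0. The median was 0.21 for daidzein+PT over PBS, -0.08 for daidzein over PBS (0.01 under quantile normalization and in the series table) and 0.30 for daidzein+PT over PT. At 2-fold or more for daidzein+PT over PBS, as were 3.08% of all genes, were 2 of the 18: Pfkfb3 (1.38), which makes the activator of phosphofructokinase, and Hk2 (1.06), the hexokinase of muscle and fat. The aldolase gene Aldoa had 0.60 and the phosphofructokinase gene Pfkl 0.40. Slc16a3, a lactate exporter, had -0.27.

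The HIF system beyond the members was read from a list of its parts. Of 13 subunits and regulators 12 were read, and 0 were at 2-fold for daidzein+PT over PBS (3.08% of all genes), with a median of -0.05. Hif3a, whose product can restrain HIF, had a log2 difference of -0.65 for daidzein+PT, -1.22 for daidzein and 0.27 for PT, each over PBS. It lies in the dimmest tercile, with an SD of 0.33, and the PT difference was within that SD. The von Hippel-Lindau gene Vhl had 0.27 for daidzein+PT over PBS and Arnt -0.04. Medians of the subunits over PBS were -0.09 for daidzein and 0.03 for PT, the second being -0.01 under normexp, quantile normalization and the series table. Of 30 further HIF targets, members included, 25 were read, with medians over PBS of -0.14 for daidzein+PT, -0.14 for daidzein and -0.08 for PT. Among them the transferrin receptor gene Tfrc had 0.71, the adenylate kinase gene Ak4 0.49 and the collagen cross-linking enzyme gene Lox -0.41 for daidzein+PT over PBS. For daidzein+PT over PBS 9 of the 25 were above 0 and 16 below, where 45.2% of all genes were above 0.

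The partners of single members were described in the same way, by differences of daidzein+PT over PBS. The VEGF family and receptors had a median of -0.12 over the 9 genes read, 2 above 0 and 7 below (45.2% of all genes above 0). Flt1, a VEGF receptor, had 0.62, Nrp1 -0.39 and Vegfc -0.38. Adrenomedullin and its receptor parts had a median of -0.25 over 5 genes, and the receptor-modifying proteins Ramp3 and Ramp2 had -0.73 and -0.60. The pyruvate dehydrogenase kinases, phosphatases and subunits had a median of 0.17 over 8 genes, with Pdhb, a subunit of the enzyme, at 1.37, Pdk2 at 0.72 and Pdk4 at -0.57. The NDRG family had a median of -0.39 over 3 genes, with Ndrg4 at -0.42. Mitophagy receptors and partners had a median of 0.27 over 8 genes, with the parkin gene Park2 at 0.90 and Pink1, the kinase that recruits parkin, at 0.50. Reference genes had a median of -0.01 over 8 genes. The adipocyte markers had medians over PBS of 3.07 for daidzein+PT, 2.31 for daidzein and 1.08 for PT. The preadipocyte and fibroblast markers had -0.39, -0.35 and -0.04 in the same order.

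An additive model of both treatments was the only test this layout allows. It compares the 2 arrays with a treatment with the 2 without it. It keeps 1 residual degree of freedom per gene, which holds any interaction. In the fit reported here limma joined this to a prior of 1721 degrees of freedom drawn from all genes. The SE of a gene thus rested almost wholly on genes of like signal, and hardly on its own interaction. limma with an intensity trend and Benjamini-Hochberg adjustment over 19673 genes called 3 of the 10 genes for daidzein, where 18.0% of all genes were called. Bnip3 rose by 0.59 on the log2 scale (SE 0.08, limma adjusted p = 1.68e-12), being higher on both arrays with daidzein than on both without it. Adm fell by 0.29 (SE 0.08, limma adjusted p = 0.0041) and Ndrg1 fell by 0.24 (SE 0.08, limma adjusted p = 0.0251). For PT 2 of the 10 were called, where 4.81% of all genes were: Bnip3 at 0.35 (SE 0.08, limma adjusted p = 0.000271) and Egln3 at 0.43 (SE 0.10, limma adjusted p = 0.000797), each beside a PT difference without daidzein of 0.02 for Bnip3 and 0.09 for Egln3.

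These calls depended on how the spread was estimated. With the trend kept, the prior had 7.93 degrees of freedom under normexp, 7.78 under the mean over probes and 6.59 under cyclic loess. It had 6.47 in the series table and 6.06 under quantile normalization. In each of these settings limma called 0 of the 10 genes for PT. The prior was infinite without the filter on dim probes. Without the intensity trend the prior had 2.35 degrees of freedom, and limma called 0 of the 10 genes for either treatment. There 1 gene was at an unadjusted p under 0.05 for daidzein and 0 for PT. The limma adjusted p of Bnip3 was then 0.285 for daidzein and 0.789 for PT. Over the other settings the adjusted p of Bnip3 lay between 4.58e-13 and 0.0255 for daidzein and between 0.000211 and 0.343 for PT. That of Egln3 for PT lay between 0.00059 and 0.747 over all settings, that of Adm for daidzein between 0.001 and 0.241, and that of Ndrg1 for daidzein between 0.0107 and 0.322. A fit with 1 entry per probe, made after the values were seen, called 6 of 17 probes for daidzein, beside 13.8% of all probes, and 4 of 17 for PT, beside 2.95%. In it the second Epas1 probe was higher by 1.07 with daidzein (limma adjusted p = 1.71e-10) and by 0.61 with PT (limma adjusted p = 1.54e-05), and the third probe by 1.70 with daidzein (limma adjusted p = 1.46e-05). The brightest Epas1 probe had -0.05 with daidzein and -0.02 with PT (limma adjusted p = 0.792 and 0.979).

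In the same additive fit by gene, which called 18.0% of all genes for daidzein and 4.81% for PT, the glycolysis list had 5 of 18 genes called higher and 0 lower for daidzein, and 2 higher and 0 lower for PT (Hk2 and Pfkfb3 for both treatments). The subunits and regulators had 1 of 12 lower for daidzein, Hif3a at -1.07 (limma adjusted p = 1.10e-10), and 1 higher for PT, which was Egln3. The further HIF targets had 4 of 25 higher and 8 lower for daidzein and 1 higher for PT, which was Bnip3. The pyruvate dehydrogenase list had 3 of 8 higher and 1 lower for daidzein and 1 higher for PT, which was Pdhb, and the mitophagy list had 3 of 8 higher for each treatment. For daidzein the VEGF list had 1 of 10 higher and 1 lower, the adrenomedullin list 3 of 6 lower, the NDRG list 1 of 3 higher and 2 lower, and the reference genes 1 of 8 higher. For PT the VEGF list had 1 higher, Flt4, which was well above background on 2 of the 4 arrays only, and the adrenomedullin list had 1 lower, Ramp3. The NDRG and reference lists had 0 called for PT. The lists are short and no list was tested against all genes. Of the preadipocyte and fibroblast markers 4 of 6 were lower for daidzein and 0 were called for PT. All 7 adipocyte markers were called higher for each treatment. Which part of the members' differences goes with the adipocyte markers was not tested.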

How the data were processed

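RNA of 4 groups was read on 1 Agilent mouse array each. The authors deposited scanner files whose processed intensity was background-subtracted and detrended by Agilent Feature Extraction, with raw mean and local background median intensity beside it, per the file headers (version 10.7.1.1 there, and 9.5.1.1 in the submitters' processing notes). Flags for background, saturation and outliers are the software's, per the file headers. The series table the authors deposited holds linear intensity that was quantile normalized, as read from its values, and served as an alternative.

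Control spots were left out, and outlier spots (106 to 173 an array) were dropped once levels had been computed. Of all spots other than controls, 49.7% to 51.4% were well above background, with 0 saturated. The log2 processed intensity minus the array's 75th percentile (360 to 418) was the level. Replicate spots (432 probes, median SD 0.06 within an array) were averaged. Of several probes of a gene, the one highest on average over the arrays stood for it. Genes well above background on both arrays were compared, and on at least 2 arrays entered limma 3.58.1 (R 4.3.3; lmFit, eBayes with trend). Of 55681 probes 2838 were renamed through RefSeq accessions. Motifs and figures used Python 3.11.15. The additive fit was tested on simulated data with additive effects of daidzein and no interaction, which cannot show how it handles an interaction.

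All 10 members are named, and from each list up to 4 genes with the largest differences of daidzein+PT over PBS; Arnt and Slc16a3 were named after their values were seen. Patterns were compared for probes spanning 2-fold or more. Members and lists were chosen with earlier results of these data known. Nothing states separate cultures, so the p-values of the additive fit measure only the spread between these arrays. The alternatives were normexp background correction (offset 50), quantile normalization, cyclic loess, the mean over probes, no filter, the series table, no intensity trend, and, after the values were seen, each probe by itself.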

Additional observations from a re-analysis of the deposited data

Results flagged for a closer look

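On the brightest Epas1 probe the PT difference had opposite signs in the pairs of arrays that share no array: it was 0.13 for daidzein+PT over daidzein and -0.17 for PT over PBS, on the log2 scale, beside an SD of 0.11. It was picked out because each pair moved the other way, and the difference was not tested. The other Epas1 probes were higher with PT in both pairs, by 0.70 and 0.53 on the second probe and by 0.96 and 0.15 on the third.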

How the results depend on the processing

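No paired analysis was possible because each group has 1 array, so no replicate number could serve as a block. The additive fit does set each treatment against its absence at both levels of the other. Members at 2-fold were 0 of 10 in all 5 comparisons under each setting except the mean over probes, which gave 1 (Epas1) for daidzein+PT over PBS and 1 for daidzein+PT over PT, and the count by probe, which gave 3 for daidzein+PT over PBS, 1 for daidzein over PBS and 2 for daidzein+PT over PT. Of 370 member differences recomputed under the settings, 346 moved by less than the SD of a difference and 24 by more, all 24 of them through a change of probe. Epas1 in the additive fit turned from -0.05 with daidzein by its brightest probe to 0.91 by the mean over probes (limma adjusted p = 0.0012). The additive fit called 3 members for daidzein and 2 for PT as reported. It called 0 for PT under normexp, quantile normalization, cyclic loess, the mean over probes and the series table, 0 for both treatments without the trend, and 6 and 4 probes for daidzein and PT with each probe fitted. Of 140 member fits, 113 kept direction and call, 20 kept the direction and lost the call, 2 gained it and 5 changed sign. Beside the Epas1 fit for daidzein, these were Epas1 for PT (-0.02), at 0.38 by the mean over probes and 0.00101 under cyclic loess, and Ankrd37 for PT (-0.01), at 0.0042 under normexp and 0.0199 under cyclic loess, none of them called.

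Of all genes 468 were 2-fold higher and 103 lower for daidzein+PT over PBS, and 287 and 37 under normexp or 2682 and 1052 without the filter. For daidzein over PBS these counts were 209 and 70, and 116 and 16 or 1809 and 1155. For PT over PBS they were 165 and 12, and 41 and 2 or 2210 and 889, with 29 lower under quantile normalization and in the series table and 22 under the mean over probes. For daidzein+PT over daidzein they were 200 and 20, and 61 and 2 or 2080 and 1110. For daidzein+PT over PT they were 390 and 160, and 231 and 42 or 2054 and 1794. The additive fit called 3536 genes for daidzein and 947 for PT, against 2350 and 284 under normexp, 2280 and 204 under quantile normalization, 2351 and 284 under cyclic loess, 1881 and 267 under the mean over probes, 2353 and 224 in the series table, 4418 and 2056 without the filter and 87 and 14 without the trend. The cause of these shifts was not tested. Egln1 and the dim probes of Hif1a, Epas1, Egln3 and Bnip3 lie in the dimmest tercile of signal, where the SD of 0.33 limits what can be read.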
